A study of Rattus norvegicus with 22 samples.

Results

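Neurofilament and axon growth genes were followed in the ventral cervical spinal cord of rats with and without their gonads. The 8 genes were taken by symbol and chosen with earlier results of these data known. They are 8 of the 32883 genes in the count table. Nefl, Nefm, Nefh and Ina encode neurofilament subunits, and Gap43, Stmn2, Sncg and Atf3 are linked to axon growth or nerve injury. All 8 had reads in every library and passed the filter on low counts in every comparison.

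Neurofilaments are the intermediate filaments of neurons. The light, medium and heavy chains and alpha-internexin assemble into one polymer that fills large axons and sets their calibre, and motor neurons hold large amounts of it. Growth-associated genes work at the growing axon tip or are switched on in the cell body after an axon is cut.

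Tissue came from segments C3-C6 of Sprague-Dawley rats aged 3 to 4 months, with 1 RNA library per rat. The dorsal part of the cord was discarded, so the samples hold motor neurons together with glia, vessels and any attached meninges and roots. There were 5 intact males, 5 males with the testes removed (GDX), 6 intact females and 6 females with the ovaries removed (OVX). GDX and OVX tissue was taken 2 weeks after surgery, and the intact rats were controls, for which the sources used here describe no sham surgery. Intact males are rats 1, 2, 3, 5 and 6, GDX males are rats 1, 2, 4, 5 and 6, and each female group is rats 1 to 6. Between 12371756 and 17571887 reads were counted per library, with a median of 14722472 over the 22 libraries.

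The libraries fall into a class with short and a class with long average fragments, as the study lists them. All 11 libraries of GDX and OVX rats are short. Among intact rats, males 2 and 5 and females 1 and 4 are short and the other 7 libraries are long. Class and removal of the gonads are therefore partly confounded, and values within the short class are given beside the results they bear on.

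Levels are CPM, a gene's counts scaled to a common library size with edgeR's TMM factors. They are not divided by transcript length, so levels are compared between rats and not between genes. Bulk tissue was sequenced, so fewer neurons and less RNA per neuron cannot be told apart in any value that follows.

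Nefl encodes the light chain, on which the other chains assemble. Its level was 4392, 3991, 4783, 4127 and 5886 CPM in intact males 1, 2, 3, 5 and 6, and 3921, 4113, 3587, 3874 and 4208 CPM in GDX males 1, 2, 4, 5 and 6. Intact females had a lowest value of 4068, a median of 4898 and a highest value of 5283 CPM, and OVX females had 3609, 4074 and 4620 CPM. Intact male 6 was far above the other males, intact female 1 was the lowest of the intact females, and the gonadectomized and intact rats of each sex overlapped.

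Nefm encodes the medium chain and Nefh the heavy chain, whose long tails project from the filament. Nefm had 5621, 4919, 5847, 5277 and 8131 CPM in intact males and 5083, 5314, 4211, 4780 and 5503 CPM in GDX males, in the same order of rats. Nefh had 4655, 4112, 5094, 4245 and 6401 CPM in intact males and 4117, 4233, 3535, 3835 and 4262 CPM in GDX males. Intact male 6 was again the highest and GDX male 4 the lowest for both genes, and the groups overlapped. In females, Nefm ran from 4690 to 7074 CPM in intact rats (median 6142) and from 4010 to 5918 CPM in OVX rats (median 4708). Nefh ran from 3919 to 5488 CPM in intact females (median 5152) and from 3626 to 4772 CPM in OVX females (median 4000). Intact female 1 was the lowest intact female and OVX female 4 the highest OVX female for both.

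Ina encodes alpha-internexin, the subunit that appears early in developing neurons. It had 321.3, 331.5, 278.1, 315.4 and 273.9 CPM in intact males and 276.1, 267.2, 192.4, 187.9 and 229.7 CPM in GDX males. GDX males 4, 5 and 6 were below every other rat of the 4 groups, and only GDX male 1 reached the range of the intact males. These 3 libraries also stood apart from GDX males 1 and 2 beyond this gene. A chi-square per gene between 2 libraries was 5.724 for rats 1 and 2 and 8.255 to 11.52 among rats 4, 5 and 6. Between these sets it was 12.62 to 26.04, and pairs of OVX females reached 22.95. Its part in the values of Ina was not tested. Intact females had 258.3, 281.1 and 294.7 CPM as lowest, median and highest values, and OVX females 245.4, 275.9 and 305.3 CPM. The female groups overlapped almost completely. Intact male 6, the highest male for Nefl, Nefm and Nefh, was the lowest intact male for Ina.

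Among the growth and injury genes, Gap43 encodes a membrane protein of growth cones, and its level lay between 42.11 and 58.81 CPM in all 22 rats. Intact males averaged 52.1 ± 6.29, GDX males 49.6 ± 3.4, intact females 48.8 ± 4.14 and OVX females 51.6 ± 5.11 CPM (SD, n = 5, 5, 6 and 6). These 4 means lay within 1 SD of each other. Stmn2 encodes stathmin-2, a tubulin-binding protein of growing and regenerating axons. Its means were 211 ± 33.2, 202 ± 11.4, 227 ± 13 and 197 ± 18.4 CPM in the same order of groups, with the lowest rat, OVX female 2, at 169.5 CPM and the highest, intact male 6, at 261.9 CPM.

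Sncg encodes gamma-synuclein, which is abundant in motor and sensory neurons and binds to the neurofilament network. It had 167.3, 167.5, 182.8, 179.2 and 216.7 CPM in intact males and 180.3, 202.4, 200.7, 211.5 and 211 CPM in GDX males. Intact male 6 was the highest male, and without that rat only GDX male 1 would fall in the range of the intact males. Intact females ran from 172.5 to 227.5 CPM (median 218.6) and OVX females from 174.6 to 222.2 CPM (median 193.4), with intact female 1 well below the other intact females.

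Atf3 encodes a transcription factor that is switched on in motor and sensory neurons after axon injury. It had few reads, 7 to 22 per library. Intact males averaged 0.831 ± 0.383, GDX males 0.945 ± 0.38, intact females 0.941 ± 0.178 and OVX females 0.914 ± 0.232 CPM (SD, n = 5, 5, 6 and 6).

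**Figure D1:**
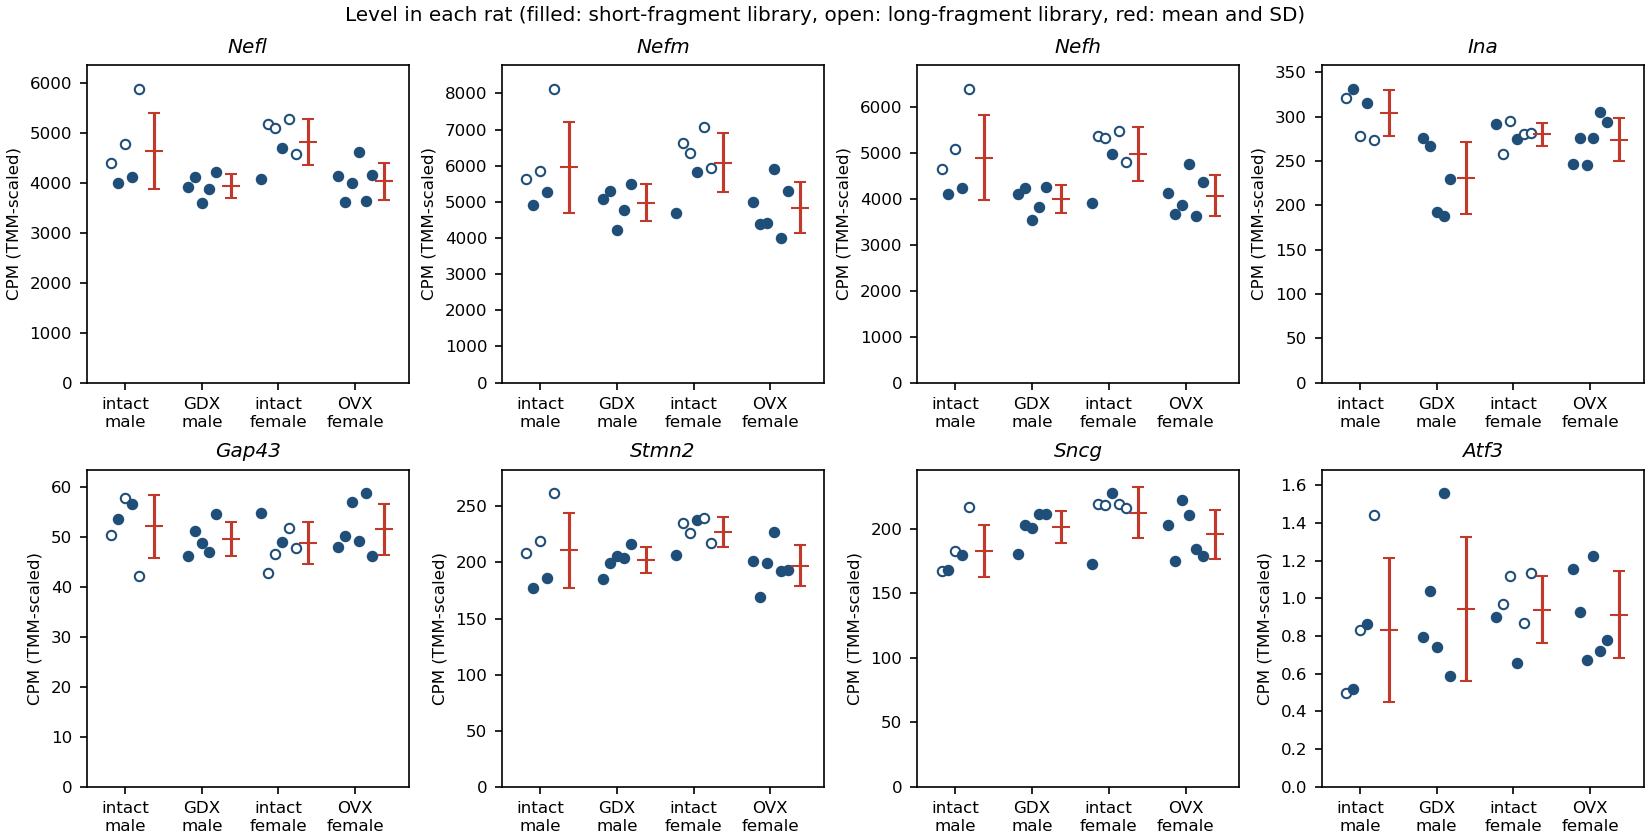
Level of each of the 8 genes in every rat, in CPM with TMM-scaled library sizes, by group; filled points are short-fragment and open points long-fragment libraries, and the red mark is the group mean with its SD. Ina lay between 187.9 and 229.7 CPM in GDX males 4, 5 and 6, below all other rats, and Nefl, Nefm and Nefh reached their highest values in intact male 6.

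In males, 2 of the 8 genes fell after removal of the testes and none rose. Ina fell by 0.40 on the log2 scale (SE 0.0999, 0.759-fold, edgeR quasi-likelihood test, adjusted p = 0.0248, n = 5 and 5), and Nefh fell by 0.29 (SE 0.099, 0.816-fold, adjusted p = 0.0825 in the same edgeR test). Over all 14931 genes tested, 13.4% passed an adjusted p of 0.1, 6.58% lower and 6.78% higher in GDX males. The other 2 neurofilament genes had log2 fold changes near that of Nefh and missed the threshold, -0.23 for Nefl (SE 0.0869, edgeR adjusted p = 0.114) and -0.26 for Nefm (SE 0.112, edgeR adjusted p = 0.172). Gap43 had a log2 fold change of -0.07, Stmn2 of -0.06, Sncg of 0.14 and Atf3 of 0.17, with edgeR adjusted p-values of 0.636, 0.733, 0.231 and 0.822. The median log2 fold change was -0.28 for the 4 neurofilament genes and 0.04 for the other 4, against 0.0021 over all genes tested. Within the short class these medians were -0.05 and 0.185.

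The calls in males depended on the library class, on a term for RNA integrity and on single rats. Within the short class, with intact males 2 and 5 left, none of the 8 genes passed edgeR's test while 2.83% of all genes did, and Ina had a log2 fold change of -0.49 (edgeR adjusted p = 0.107) and Nefh of -0.06 (edgeR adjusted p = 0.697), while Nefl had -0.04 and Nefm -0.03. With the class as a term, Ina kept a log2 fold change of -0.49 (edgeR adjusted p = 0.0701) and Nefh had -0.06 (edgeR adjusted p = 0.779). With RIN, a score of RNA integrity, as a term, edgeR called all 4 neurofilament genes and 8.45% of all genes. The edgeR adjusted p-values were 0.074 for Nefl, 0.0855 for Nefm, 0.0636 for Nefh and 0.0847 for Ina. DESeq2 called Ina (log2 fold change -0.40, adjusted p = 0.0227) and did not call Nefh (-0.29, adjusted p = 0.145), with 14.1% of all genes called. With each male left out in turn, Ina passed in 10 of 10 edgeR fits, with adjusted p-values from 0.007 to 0.0646. Nefh passed in 4 of 10 and missed without intact male 1, 3 or 6 or GDX male 4, 5 or 6, with an edgeR adjusted p of 0.178 without GDX male 4. Nefl passed without intact male 2 (edgeR adjusted p = 0.0695) or 5, and Sncg without intact male 6 (edgeR adjusted p = 0.0406). Over all genes these fits called 1480 of 15040, 1573 of 15036 and 1621 of 15059.

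In females, 0 of the 8 genes passed edgeR's quasi-likelihood test after removal of the ovaries, where 0.0335% of 14910 genes did. At an unadjusted p under 0.05 there were 4 of the 8 genes and 10.2% of all genes. DESeq2 called 2 of the 8, Nefl and Stmn2, with adjusted p-values of 0.0255 and 0.0656, and 1.17% of all genes, while edgeR's exact test called 0 of the 8 and 0.637%. The log2 fold changes were -0.25 for Nefl (SE 0.0653, edgeR adjusted p = 0.189), -0.32 for Nefm (SE 0.0939, edgeR adjusted p = 0.247) and -0.28 for Nefh (SE 0.0772, edgeR adjusted p = 0.224). Stmn2 had -0.20 (SE 0.0565, edgeR adjusted p = 0.241) and Ina -0.03 (SE 0.0532, edgeR adjusted p = 0.916). Gap43, Sncg and Atf3 had 0.08, -0.11 and -0.01. Without intact female 1, a short-fragment library, edgeR called 3 genes, Nefl, Nefm and Nefh (adjusted p = 0.054, 0.0586 and 0.049), and without OVX female 4 it called 2, Nefl and Stmn2, the latter at an adjusted p of 0.09. Over all genes these fits called 113 of 14997 and 38 of 14987, against 5 of 14910 with every female. Within the short class, with intact females 1 and 4 left, Nefl, Nefm and Nefh had log2 fold changes of -0.12, -0.12 and -0.13 and none of the 8 genes was called.

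Whether the male and female responses differed was tested as an interaction over all 22 rats, which uses the same libraries as the comparisons within each sex. None of the 8 genes passed edgeR's test, where 0.116% of 15562 genes did. At an unadjusted p under 0.05 there were 2 of the 8 genes and 11.6% of all genes, and DESeq2 called 0 of the 8 and 1.56% of all genes. Ina had the largest interaction of the 8 genes in size, a log2 difference of -0.36 between the male and the female change (SE 0.118, unadjusted p = 0.00515, edgeR adjusted p = 0.211). Without GDX male 1 it passed, with an edgeR adjusted p of 0.0787, in a fit that called 275 of 15694 genes, against 18 of 15562 with every rat. A difference between the sexes in the response of Ina was therefore not established, although the call was made in males alone. Sncg had a log2 difference of 0.26 (SE 0.105, edgeR adjusted p = 0.328).

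Intact males were compared with intact females, with libraries that also serve as controls above. Of the 8 genes 0 passed edgeR's test, where 4.01% of 14937 genes did. At an unadjusted p under 0.05 there were 2 of the 8 genes and 15.5% of all genes, and DESeq2 called 1 of the 8, Sncg, and 5.49% of all genes. Sncg had a log2 fold change of -0.21 in males against females (SE 0.0736, edgeR adjusted p = 0.165) and passed without intact male 6 or without intact female 1 (edgeR adjusted p = 0.0272 without that female). Over all genes these fits called 457 of 15032 and 777 of 14789. Ina had 0.12 (SE 0.053, edgeR adjusted p = 0.289), and Nefl, Nefm and Nefh lay between -0.05 and -0.02. GDX males and OVX females, all of the short class, had 0 of the 8 genes called by edgeR, against 0.232% of 15084 genes, and 0 by DESeq2, against 0.862%. At an unadjusted p under 0.05 there were 1 of the 8 genes and 9.37% of all genes. That gene was Ina, with a log2 fold change of -0.24 in GDX males against OVX females (SE 0.0966, edgeR adjusted p = 0.433).

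The library class itself was compared within the 11 intact rats, with sex as a term. Long-fragment libraries had log2 fold changes of 0.25 for Nefl, 0.33 for Nefm, 0.30 for Nefh and 0.18 for Stmn2 against short-fragment ones, and of -0.09 for Ina and -0.14 for Gap43. By edgeR 0 of the 8 genes passed and 0.0066% of 15147 genes did, and DESeq2 called 0 of the 8 and 0.383% of all genes. At an unadjusted p under 0.05 there were 4 of the 8 genes and 7.72% of all genes. Without a filter on low counts, edgeR called Nefl, Nefm and Nefh, and with them 210 of 23561 genes, against 1 gene with the filter. For these 3 genes the class differences were about as large as the differences between gonadectomized and intact rats, all of whose gonadectomized libraries are short. With the class as a term, Nefl, Nefm and Nefh had log2 fold changes of -0.04, -0.03 and -0.06 in GDX against intact males and of -0.12, -0.12 and -0.12 in OVX against intact females, and none of them was called.

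**Figure D2:**
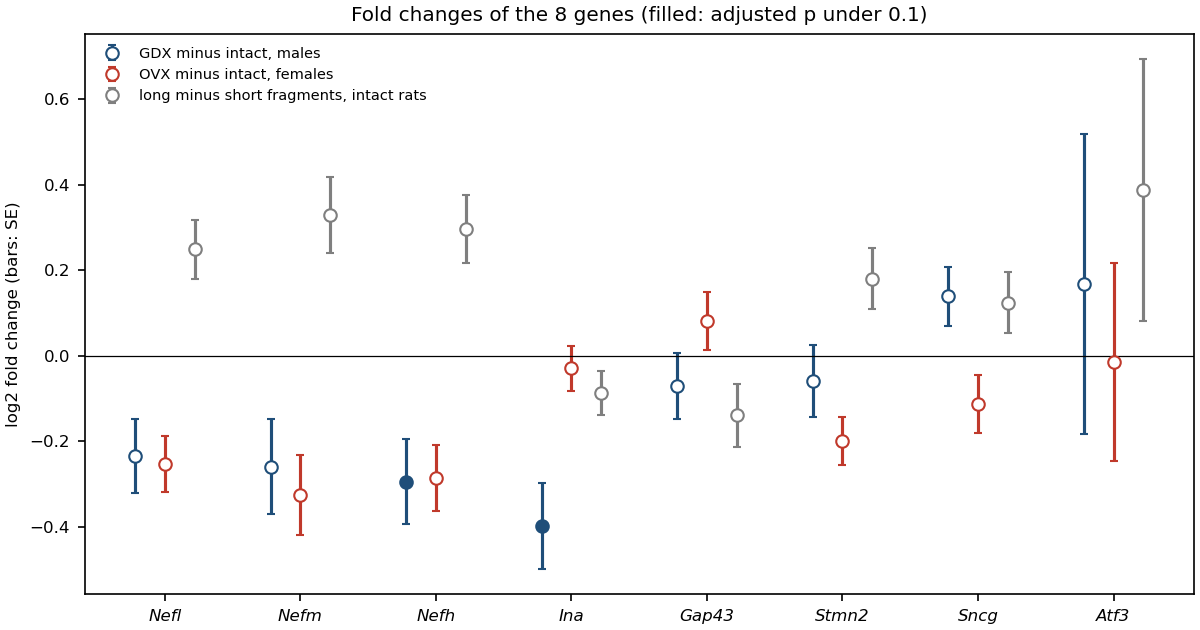
Log2 fold changes of the 8 genes with their SE from edgeR, for GDX against intact males, OVX against intact females, and long against short fragments in intact rats; filled points have an adjusted p under 0.1. Nefl, Nefm and Nefh lie between -0.32 and -0.23 after either surgery and between 0.25 and 0.33 for long against short fragments, while Ina is at -0.40 in males and -0.03 in females.

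The neurofilament genes did not vary as 1 unit. Over the 22 libraries, log2 CPM of Nefl, Nefm and Nefh had pairwise Pearson correlations between 0.966 and 0.987, while Ina had 0.228, 0.217 and 0.287 with them. Stmn2 had 0.861, 0.796 and 0.815 with the same genes, and Gap43 -0.433, -0.512 and -0.46. The points share their groups, classes and library sizes, so these values describe this set of libraries and carry no test.

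Dividing by Nefl reads removes library size and shows how the other genes stood beside the light chain. These ratios were looked at after the values were seen, and they are given with no test. Per 100 Nefl reads, Sncg had 3.808, 4.197, 3.821, 4.342 and 3.682 reads in intact males and 4.597, 4.922, 5.596, 5.46 and 5.015 in GDX males. All GDX males were above all intact males, the only pair of groups without overlap among 24 pairs for 6 genes and 4 comparisons. Of 14930 genes set against Nefl in the same way, 9.93% had every GDX male above every intact male and 0.0402% had every GDX male below, so many genes share this separation, and 13.4% of genes passed edgeR's test in this comparison. The 2 short libraries of intact males, rats 2 and 5, were the highest of their group and still below GDX male 1. In females the ratio ran from 4.14 to 4.84 in intact rats and from 4.32 to 5.55 in OVX rats. The level of Sncg itself did not pass in males, and Nefl, the divisor, was lower on average in GDX males.

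Nefh stayed near Nefl in every rat, with 96.3 to 108.7 reads per 100 Nefl reads. Ina had 7.32, 8.31, 5.81, 7.64 and 4.65 reads per 100 Nefl reads in intact males and 7.04, 6.50, 5.36, 4.85 and 5.46 in GDX males. The groups overlapped across all libraries. Within the short class, with only 2 intact males, the ratios of Ina, Stmn2 and Sncg to Nefl did not overlap between GDX and intact males, Ina lower and the others higher in GDX males. There 20% of all genes did not overlap either, 13% higher and 7.05% lower.

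**Figure D3:**
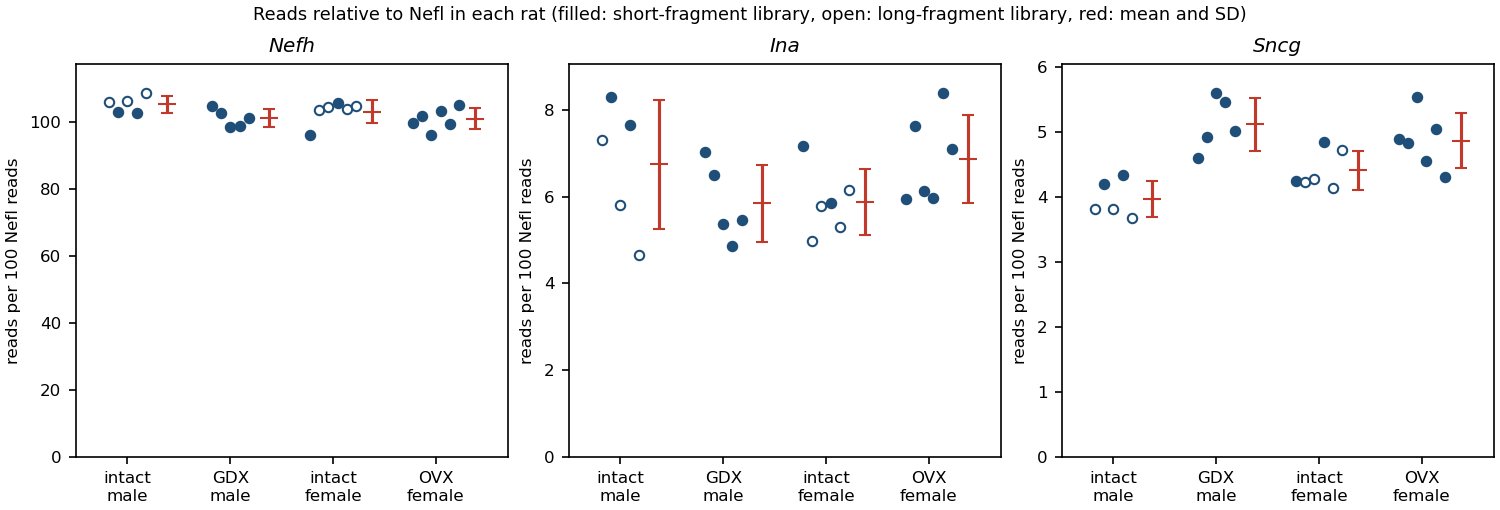
Reads of Nefh, Ina and Sncg per 100 Nefl reads in every rat by group, with filled points for short-fragment and open points for long-fragment libraries, and the group mean with its SD in red. Sncg lies between 3.682 and 4.342 in intact males and between 4.597 and 5.596 in GDX males.

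Of the 8 genes, 2 had an entry among RefSeq promoter sequences, Ina and Sncg. Each entry runs from 250 bases before to 50 bases after the start of the gene in the GRCr8 build, which is not the build the reads were mapped to. Both are shown, since the table has no entry for the others. The half-site of the androgen and glucocorticoid receptors, AGAACA, and that of the estrogen receptors, GGTCA, were searched on both strands, and matches are in capitals. Ina lies on chr1:255837879-255838178 on the plus strand and Sncg on chr16:9711287-9711586 on the minus strand, both written 5′ to 3′.
Ina: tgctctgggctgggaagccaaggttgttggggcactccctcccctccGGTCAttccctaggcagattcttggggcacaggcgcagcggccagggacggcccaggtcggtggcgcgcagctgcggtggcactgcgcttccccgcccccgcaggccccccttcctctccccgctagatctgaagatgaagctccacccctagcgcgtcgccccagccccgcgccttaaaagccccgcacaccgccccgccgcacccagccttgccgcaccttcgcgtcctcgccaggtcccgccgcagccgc
Sncg: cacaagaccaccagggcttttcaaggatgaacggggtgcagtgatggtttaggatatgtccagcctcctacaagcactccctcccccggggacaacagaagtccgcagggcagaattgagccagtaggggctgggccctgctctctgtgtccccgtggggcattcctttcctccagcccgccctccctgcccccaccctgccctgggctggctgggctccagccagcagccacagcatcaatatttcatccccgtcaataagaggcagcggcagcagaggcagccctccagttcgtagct
GGTCA was found 1 time in the Ina sequence and AGAACA 0 times, and neither was found in the Sncg sequence. Among all 33469 promoters of this length, 40.5% hold GGTCA and 20.7% hold AGAACA. A match is a run of letters and not a binding site.

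Genes that work beside neurofilaments were followed as lists in GDX against intact males, each read against the 6.58% of genes lower and 6.78% higher in the table. The lists were chosen with earlier results of these data known, so a count above these shares is no independent result. Of 20 genes for axonal microtubules and the spectrin scaffold, 8 fell and none rose, with a median log2 fold change of -0.15. They include Map1b (-0.26, edgeR adjusted p = 0.019), a microtubule-associated protein of axons, Sptbn4 (-0.29, edgeR adjusted p = 0.0235), the spectrin of nodes and initial segments, Tuba4a (-0.19, edgeR adjusted p = 0.0262), a tubulin, and Map6 (-0.23, edgeR adjusted p = 0.0413), which stabilizes microtubules. Of 12 axonal transport genes, 5 fell and none rose, among them the kinesin light chain Klc2 (-0.24, edgeR adjusted p = 0.0156) and the dynein chain Dync1i1 (-0.23, edgeR adjusted p = 0.0248). Kinesin and dynein carry cargo, neurofilaments included, along axons.

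Of 8 other intermediate filament genes, 3 rose in GDX males and none fell: Gfap, the filament of astrocytes (0.38, edgeR adjusted p = 0.00472), Vim (1.16, edgeR adjusted p = 0.0139) and Nes (1.25, edgeR adjusted p = 0.0295), the latter pair found in glia, vessels and connective tissue. By edgeR, 3 of these 8 genes, Vim, Nes and Lmna, were lower in intact males than in intact females, where 4.01% of all genes passed. Between GDX males and OVX females 0 of the 8 passed. Among 9 relatives of Stmn2, Sncg and Gap43, Stmn3 and Sncb fell, by 0.16 and 0.35 on the log2 scale (edgeR adjusted p = 0.0273 and 0.0581), and Stmn1 and Marcks rose, with 0.13 and 0.28 (edgeR adjusted p = 0.0793 and 0.00554).

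Of 25 regeneration-associated genes 21 were tested, and 9.52% of them were called, against 13.4% of all genes. In this list 2 fell and none rose. These were L1cam, an axonal adhesion molecule (-0.36, edgeR adjusted p = 0.00714), and Ecel1, a peptidase of injured motor neurons (-0.36, edgeR adjusted p = 0.0878). Sprr1a, which is strongly induced in injured neurons, had 0 reads in every library. Of 15 stress partners of ATF3 12 were tested, and Egr1 rose (0.42, edgeR adjusted p = 0.0872) while Chac1 fell (-0.31, edgeR adjusted p = 0.0831). That was 16.7% of the 12, so both lists were called at about the rate of all genes. In OVX against intact females, none of the genes of these 6 lists passed.

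Fewer of these genes were called in males within the short class, which has only 2 intact rats. There, where 2.83% of all genes passed in edgeR, 1 of the 20 microtubule and spectrin genes was called, Sptbn4, and 0 of the 12 transport genes. Their median log2 fold changes were -0.13 and -0.11, against -0.15 and -0.15 over all libraries. Of the other intermediate filaments Gfap was called, of the relatives of Stmn2, Sncg and Gap43 Marcks and Sncb, of the regeneration-associated genes L1cam and Lgals1, and of the stress partners none. L1cam fell, while Lgals1, which was not called over all libraries, rose. With the class as a term, where 5.33% of all genes passed, the same genes were called and Klc2 with them.

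**Figure D4:**
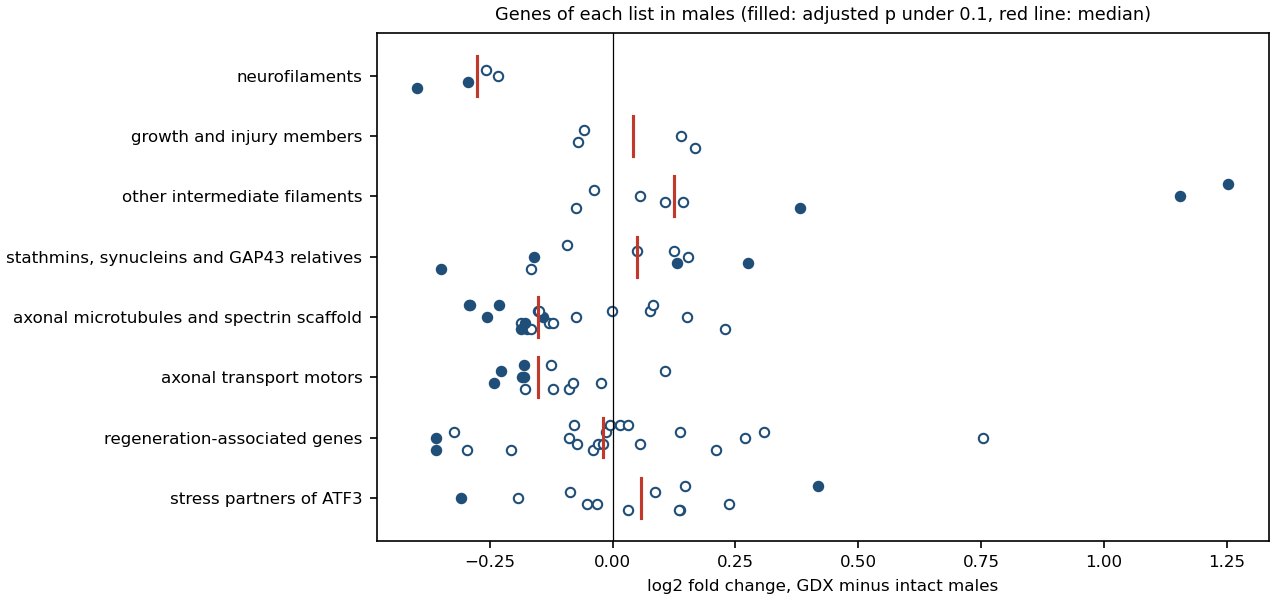
Log2 fold change of each tested gene in GDX against intact males, by list, with filled points for an edgeR adjusted p under 0.1 and a red line at each list's median. The medians are -0.28 for the neurofilament genes, -0.15 for axonal microtubules and spectrin and for transport motors, and 0.13 for other intermediate filaments; within the short class the neurofilament median was -0.05.

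Markers of cell types, also chosen with earlier results of these data known, were followed in the same comparison. Of 10 genes of neurons in general, 6 fell in GDX males, with Uchl1 (-0.22, edgeR adjusted p = 0.00814), Thy1 (-0.25, edgeR adjusted p = 0.0082) and Syn1 (-0.32, edgeR adjusted p = 0.0161) at the smallest p. Their summed level was 2478, 2480, 2346, 2391 and 2468 CPM in intact males and 2179, 2177, 2078, 1932 and 2100 CPM in GDX males, with Snap25 the most abundant gene. Every GDX male was below every intact male in this sum, which abundant genes carry. How many of all genes separate the groups in this way was not counted, while 13.4% passed edgeR's test in this comparison. In the mean log2 CPM of the same 10 genes the groups overlapped, with GDX male 5 at 6.848 above intact males 3 and 6 at 6.804 and 6.846. In females the sums were 2288 ± 22 CPM in intact and 2177 ± 89.6 CPM in OVX rats (SD, n = 6 and 6), and none of the 10 genes passed.

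Of 13 motor neuron markers 12 were tested in males, and 1 fell, Slc18a3, the vesicular acetylcholine transporter (-0.43, edgeR adjusted p = 0.0542). That was 8.33% of the 12, not above the 13.4% of all genes called. The median log2 fold change of the 12 was -0.16 over all libraries, with 1 positive. Their summed level was 693.6, 589.8, 840.8, 617.2 and 1091 CPM in intact males and 652.4, 700.2, 722.7, 724.8 and 815.8 CPM in GDX males, with Prph the most abundant. Among intact males the short-fragment libraries 2 and 5 were lowest and rat 6 highest, as for Nefl, Nefm and Nefh. In females the sums ran from 679 to 957.7 CPM in intact and from 549.2 to 844.9 CPM in OVX rats, and none of the 12 tested genes passed. All 12 had a negative log2 fold change there, with a median of -0.35. For long against short fragments in intact rats all 12 had a positive log2 fold change, with a median of 0.39 and none called, and all OVX libraries are short. Within the short class the median in females was -0.14, with 3 of the 12 positive, and in males it was 0.04, with 7 of the 12 positive and none called.

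Meningeal and fibroblast markers rose in GDX males, 7 of the 7 tested, with a median log2 fold change of 1.57. Their sums were 143.6, 106.9, 106.7, 70.9 and 51.82 CPM in intact males and 136.3, 220.3, 328.3, 433.3 and 361.7 CPM in GDX males, with Col1a1 the most abundant. GDX males 4, 5 and 6 were highest among males, the rats in which Ina was lowest. OVX females 1 and 3, with sums of 356.9 and 372.3 CPM, had the lowest Ina of their group, 246.3 and 245.4 CPM. Intact females 4 and 6 had sums of 325.4 and 364.7 CPM with Ina at 275.3 and 281.7 CPM. Intact male 6 had the lowest sum and also the lowest Ina of the intact males. Intact females averaged 236.9 ± 102 and OVX females 290.3 ± 64.3 CPM (SD, n = 6 and 6), so intact males were the group with the lowest mean. Endothelial markers rose as well, 6 of 6, and so did 2 of 7 astrocyte markers, Gfap and Aqp4. Of 7 oligodendrocyte markers Mbp rose, 14.3% of the list against 13.4% of all genes, and of 7 microglial markers none passed. None of the tested markers of sensory ganglion neurons, skeletal muscle and dorsal horn neurons passed. Sensory ganglion markers summed to 9.12 to 14.8 CPM per library, with Mrgprd at 0 in every library. Within the short class, edgeR called 3 of the 10 genes of neurons in general in males, Syt1, Syn1 and Syp, and not Uchl1 or Thy1. The median log2 fold change of the 10 was -0.20, against -0.21 over all libraries. Of meningeal and fibroblast markers 8 were tested there and 5 called. All 8 were positive, with a median of 1.52. Of 6 endothelial markers Cdh5 was called. All 6 were positive, with a median of 0.355 against 0.566 over all libraries. Of 4 Schwann cell markers 2 were called, with a median of 1.99. Gfap was called of 7 astrocyte markers, and no oligodendrocyte marker was. The part of these differences in tissue make-up in the values of Ina and Nefh was not tested.

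In OVX against intact females, the endothelial marker Kdr rose (0.77, edgeR adjusted p = 0.0966), where 0.0335% of all genes passed. This call was lost in 6 of 12 fits with each female left out and in 3 of the other settings. All 6 endothelial markers had a positive log2 fold change in OVX females, with a median of 0.51 over all libraries and of 0.72 within the short class, where none was called. Their sums averaged 118.7 ± 29.5 CPM in intact and 170.2 ± 25.1 CPM in OVX females (SD, n = 6 and 6). Between intact males and intact females, 5 of 7 meningeal and fibroblast markers were lower in males by edgeR, with a median log2 fold change of -1.23. The endothelial marker Cdh5 was lower in males (-1.13, edgeR adjusted p = 0.00181), and the neuronal marker Snap25 was higher (0.14, edgeR adjusted p = 0.0459). These markers' part in the values of the neurofilament genes in females and of Sncg between the sexes was not tested.

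**Figure D5:**
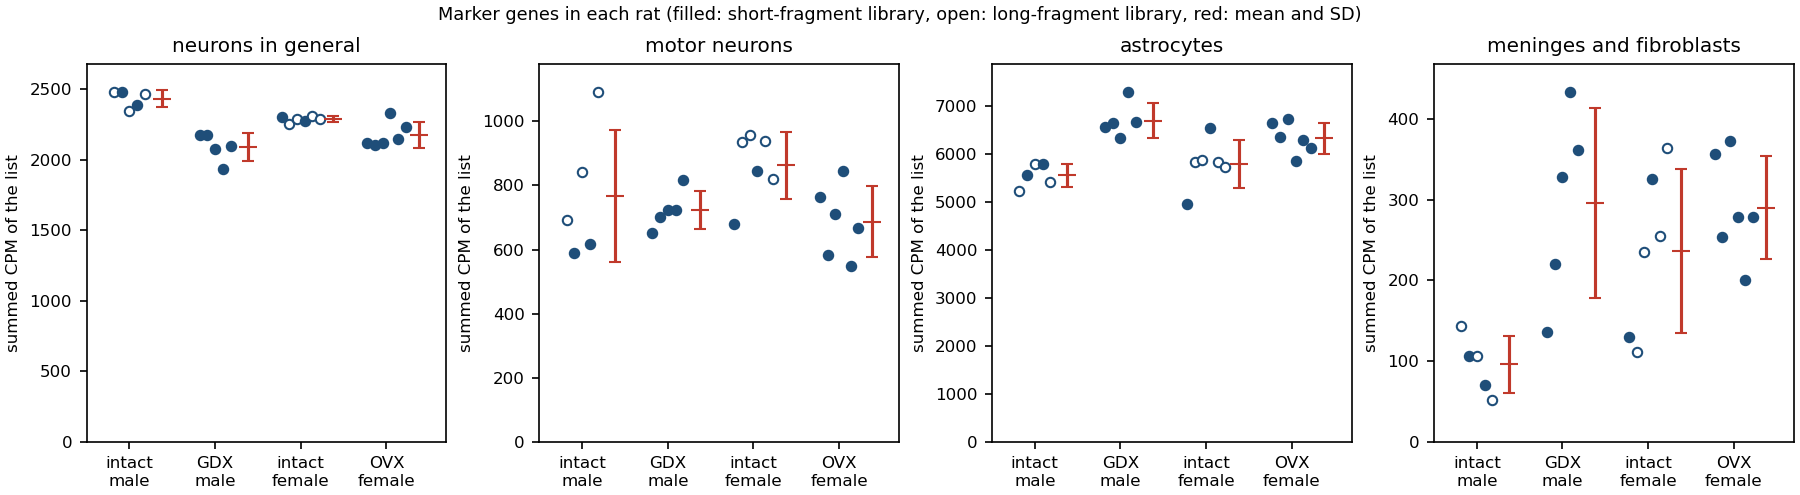
Summed CPM of the marker genes of neurons in general, motor neurons, astrocytes, and meninges and fibroblasts in every rat by group, with filled points for short-fragment and open points for long-fragment libraries and the mean with its SD in red. For neurons in general the sums average 2433 CPM in intact males against 2093 CPM after GDX, and meningeal sums 96 against 296 CPM, with 236.9 CPM in intact females.

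Genes whose log2 CPM ran most like the members' over the 22 libraries were sought by Pearson correlation, as a description. The mean of the 4 neurofilament genes was followed most closely by Epb41l3 (0.957), Klc1 (0.955) and Map1b (0.953). For Stmn2 these were Prph (0.92), itself an intermediate filament of motor neurons, AC126641.1 (0.91) and Hebp2 (0.894), and for Sncg they were Anxa2 (0.871), Cotl1 (0.868) and Crip2 (0.858). Gap43 was followed by Scg2 (0.82), Cep70 (0.774) and Mak (0.749), and Atf3, at its low counts, by Ikbkg (0.747), Sipa1 (0.682) and Tmed9 (0.676).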

How the data were processed

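The paper describes trimming, mapping with Hisat2 and counting with featureCounts by the authors, while the submitters' notes name TopHat2 2.0.13; which made the table is not settled here. The deposited values are raw counts, not normalized. Genes were taken by symbol, and the members and lists were chosen with earlier results of these data known. Counts were fitted in edgeR 4.0.16 (R 4.3.3) with filterByExpr (minimum count 10), TMM factors, glmQLFit and glmQLFTest, with Benjamini-Hochberg adjustment over all genes tested and calls at an adjusted p under 0.1. Only the groups compared entered a fit, except for the interaction. Genes of the lists are named where called, up to 4 per direction and list. DESeq2 1.42.0 and the settings in the closing section were alternatives. Ratios to Nefl were chosen after values were seen. Exact permutation tests of them, planned over 20 ratios, were computed over 12 in an earlier version; the smaller number brought 1 ratio, Sncg in males, under the threshold, so all were dropped and none is reported. Strand and multi-mapping settings of the counting are not given in the sources used here.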

Additional observations from a re-analysis of the deposited data

Results flagged for a closer look

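Outlying single libraries were sought by Dixon's rule in 56 sets of values, the 4 groups for the CPM of the 8 genes and for 6 ratios to Nefl, where chance gives about 1 in 20. There were 3. Nefm in intact male 6 was 8131 CPM, with the other intact males between 4919 and 5847. Sncg in intact female 1 was 172.5 CPM, with the other intact females between 216.2 and 227.5. Nefh in the same rat was 96.33 reads per 100 Nefl reads, with the others between 103.8 and 105.9. Intact male 6 is a long-fragment and intact female 1 a short-fragment library.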

How the results depend on the processing

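In males 2 genes were called. This became 1 with DESeq2, 1 with the library class as a term, 0 with short-fragment libraries only, 4 with RIN as a term, 4 at unadjusted p, 3 with no filter, 3 with all 22 rats in 1 fit, and 1 to 3 with each male left out. It was 1 without intact male 1 or 3 or GDX male 4, 5 or 6. In females 0 became 2 with DESeq2, 4 at unadjusted p and 0 to 3 with each female left out. For intact males against intact females 0 became 1 with DESeq2, 2 at unadjusted p and 0 to 1 with each rat left out. GDX males against OVX females gave 1 at unadjusted p, the interaction 2 at unadjusted p and 0 to 1 with each rat left out, and the class 3 with no filter and 4 at unadjusted p. Over all genes, 13.4% in males became 14.1% with DESeq2, 23.8% at unadjusted p, 7.48% with no filter, 15.4% with all 22 rats and 8.45% with RIN. As counts, 1995 became 796 with the class, 440 in short libraries, 1262 with RIN, 1274 with the block and 1202 to 2446 with each male left out. Leaving out each rat gave 0 to 113 in females, where the count was 5, and 1 to 275 for the interaction, where it was 18. The causes were not tested.

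With the rat number as a replicate block, 1 member was called in males, Ina. Correlations of same-numbered rats lay between -0.114 and 0.0626 and none was over 0.1, so the block is given only here. Under the block the log2 fold change of Atf3 in GDX males against OVX females was -0.0712 and the interaction of Nefh 0.0709.

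Other log2 fold changes that turned sign belong to genes that were not called. In males, Atf3 was -0.0311 with RIN as a term, and Stmn2 was 0.153 with the class as a term and 0.155 in short libraries. In females, Gap43 was -0.00957 and -0.0128, and Atf3 0.24 and 0.235, in these 2 settings. Between intact sexes, Nefm was 0.000288 and Nefh 0.00397 with RIN. The interaction of Nefh was 0.063 in short libraries. With each rat left out, ranges that cross 0 were -0.115 to 0.0308 for Stmn2 and -0.0738 to 0.462 for Atf3 in males, -0.119 to 0.0525 for Atf3 in females, -0.164 to 0.0347 for Nefm and -0.134 to 0.037 for Nefh between intact sexes, and, for GDX males against OVX females, -0.0584 to 0.013 for Nefl, -0.00424 to 0.107 for Nefm, -0.0547 to 0.0242 for Nefh, -0.000268 to 0.083 for Stmn2 and -0.216 to 0.155 for Atf3. In the interaction they were -0.0255 to 0.124 for Nefl, -0.0616 to 0.109 for Nefh and -0.0506 to 0.487 for Atf3.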
